A study of Mus musculus with 11 samples.

Results

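The libraries described here are the ChIP-seq of ZIC2 and of POU3F1 in mouse EpiSCs (epiblast stem cells) cultured without activin, which are 2 of the 11 samples of the series. They were chosen by their culture and TF (transcription factor), and the deposited ZIC2 list holds 109305 peaks and the POU3F1 list 101989. The genome was divided into 1 Mb segments, and the 2585 of 2665 segments with a peak of any of the 5 TFs of the activin-free culture were compared. The density of a TF is the summed width of its peaks in a segment divided by its mean over these segments, so that a density of 1 is the average segment, and a run is a row of adjacent segments in which the same TF has the higher density.

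The EpiSCs were of 129/Sv origin and were maintained with activin at 20 ng/ml together with Fgf2 at 10 ng/ml. In both libraries activin had been removed 18 h before the cells were harvested. The cells expressed the TF with the BLRP sequence for biotinylation, together with the biotin ligase BirA, from a transfected CAG promoter plasmid, so the tagged protein was added to that of the cell. The medium was changed 8 h after transfection, the cells were fixed at 24 h, and DNA of about 150 bp bound to streptavidin was sequenced. For comparison, the libraries of the same TFs in EpiSCs that had kept activin were used, and OTX2, SOX2 and POU5F1 were used where named. Every TF was profiled in 1 library per culture, so no value has a replicate error, no test was made between TFs or cultures, and TF and library cannot be told apart.

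ZIC2 is a zinc finger protein that binds GC-rich sequences and is known for its role in the epiblast and in the forebrain. POU3F1, also called Oct6, is a POU domain protein that recognises the octamer and related AT-rich sequences and is expressed in the epiblast and in early neural cells. EpiSCs from which activin is taken away leave the epiblast state toward anterior neural plate. Mammalian chromosomes consist of long stretches that differ in base composition, in which GC-rich stretches hold many short genes and AT-rich stretches hold few and long genes.

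To show the kind of DNA that the lists hold, the 121 bp around the midpoint of the highest-scoring peak narrower than 1000 bp is given for the segments with the largest differences in density. Sequences are the plus strand of mm9, and capitals mark CCTGCTG (a ZIC motif) or the octamer (ATGCAAAT or ATGCATAT) on either strand. The following are from ZIC2 peaks of scores 777, 1364 and 1014 in segments of high ZIC2 density:
ZIC2 chr10:80988056-80988176: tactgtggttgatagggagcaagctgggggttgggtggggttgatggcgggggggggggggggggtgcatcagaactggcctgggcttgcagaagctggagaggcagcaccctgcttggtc
ZIC2 chr10:79813192-79813312: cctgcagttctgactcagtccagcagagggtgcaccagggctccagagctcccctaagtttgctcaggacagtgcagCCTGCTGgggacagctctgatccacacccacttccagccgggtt
ZIC2 chr17:56430813-56430933: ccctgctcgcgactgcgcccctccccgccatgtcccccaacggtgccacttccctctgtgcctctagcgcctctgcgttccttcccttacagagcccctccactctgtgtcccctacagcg
The following are from POU3F1 peaks of scores 179.9, 275 and 247 in segments of high POU3F1 density:
POU3F1 chr1:68104195-68104315: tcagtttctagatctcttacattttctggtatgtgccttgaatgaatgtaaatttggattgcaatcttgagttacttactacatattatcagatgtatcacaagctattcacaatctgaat
POU3F1 chrX:84701592-84701712: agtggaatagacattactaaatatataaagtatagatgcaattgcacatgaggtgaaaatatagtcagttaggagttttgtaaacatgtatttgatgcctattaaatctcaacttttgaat
POU3F1 chr16:74781520-74781640: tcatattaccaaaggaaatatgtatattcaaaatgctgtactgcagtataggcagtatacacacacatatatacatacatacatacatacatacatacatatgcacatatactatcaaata
The ZIC2 sequences had a GC content of 65.3%, 61.2% and 66.9%, and the POU3F1 sequences 31.4%, 28.1% and 28.1%. The ZIC2 sequences lie 1.15, 2.10 and 0.939 kb from the nearest gene starts, of Gna15, Adamtsl5 and Plin3. The first POU3F1 sequence lies within Erbb4 and 935 kb from the nearest gene start, that of Cps1, the second lies within Il1rapl1 and 659 kb from its start, and the third lies outside genes and 369.5 kb from the start of Robo2.

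To show peaks with a motif, including peaks of a TF inside a run of the other, 4 more sequences were chosen after their values were seen. They are the highest-scoring peaks under 1000 bp that hold the TF's motif in the longest run of either TF:
ZIC2 in the ZIC2 run, chr5:145377330-145377450: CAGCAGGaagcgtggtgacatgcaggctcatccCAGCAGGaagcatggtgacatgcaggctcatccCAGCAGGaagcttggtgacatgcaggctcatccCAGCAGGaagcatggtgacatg
ZIC2 in the POU3F1 run, chr16:54683191-54683311: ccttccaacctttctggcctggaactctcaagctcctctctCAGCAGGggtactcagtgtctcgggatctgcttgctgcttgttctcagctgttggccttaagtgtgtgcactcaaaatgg
POU3F1 in the POU3F1 run, chr16:54090971-54091091: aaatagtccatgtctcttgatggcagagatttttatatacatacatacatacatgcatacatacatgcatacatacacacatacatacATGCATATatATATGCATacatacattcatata
POU3F1 in the ZIC2 run, chr5:111586036-111586156: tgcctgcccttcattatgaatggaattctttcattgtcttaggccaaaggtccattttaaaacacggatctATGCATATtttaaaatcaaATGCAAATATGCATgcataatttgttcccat
The first of these is a tandem repeat with 4 copies of the reverse complement of CCTGCTG. The ZIC2 sequences have a GC content of 57.9% and 52.9% and the POU3F1 sequences 28.9% and 33.9%.

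High scores were found at the genes of the TFs, and not at those of a list's own TF alone. In the ZIC2 list, peaks of score 3100 lay over the exons of Zic2 on chromosome 14, from 122872878 to 122876360 and from 122877474 to 122878566. In the POU3F1 list, a peak of score 3100 from 124334546 to 124336665 on chromosome 4 covered 1777 bp of exon of Pou3f1. The ZIC2 list also had peaks of score 3100 over Pou3f1 and Pou5f1 and of 2762 over Sox2, and the POU3F1 list had one of 1459 over Zic2. At the exons of a list's own TF, transfected cDNA and chromosomal DNA cannot be told apart. The plasmid of a library encoded its own TF, and the source of peaks at the genes of the other TFs was not tested. Of the ZIC2 peaks, 91.2% overlapped a ZIC2 peak of the culture with activin, and of the POU3F1 peaks 86.8% overlapped a POU3F1 peak of that culture. By median width, ZIC2 peaks (815 bp) were narrower than POU3F1 peaks (1230 bp), and widths over 2000 bp were found for 5.67% and 18.0%, respectively. The mean segment held 41720 bp of ZIC2 peaks and 58339 bp of POU3F1 peaks. Read depth is unknown from peak lists, and a list that was called from fewer reads holds fewer peaks of low score.

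The segments rich in one TF were poor in the other. ZIC2 density was higher in 1218 segments and POU3F1 density in 1362, with 5 ties. The densities differed at least 2-fold (with 0.1 added to both) in favour of ZIC2 in 905 segments, which is 35.0% of all, and in favour of POU3F1 in 1042, which is 40.3%. Spearman's correlation of the densities over the 2585 segments was -0.658. These segments are neighbours in 1 genome and share a library, its depth and their base composition, so this value is a description.

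The highest ZIC2 densities were found in 2 adjacent segments of chromosome 10. From 80000001 to 81000000 there were 339 ZIC2 peaks at a density of 12.4 and 3 POU3F1 peaks at a density of 0.0351, and from 79000001 to 80000000 there were 327 ZIC2 peaks at 11.7 and 0 POU3F1 peaks. These segments have a GC content of 53.7% and 53.6% and hold 59 and 60 protein-coding genes. In the first, the largest widths of ZIC2 peaks over a gene with 10 kb on each side were 39.0 kb at Gng7, a G protein subunit, 34.8 kb at Nfic, a TF of the NFI family, and 27.9 kb at Dot1l, a histone methyltransferase, each with 0 POU3F1 peaks. In the second, there were 38.8 kb at Sbno2, 29.6 kb at Arid3a and 24.6 kb at Tcf3, the helix-loop-helix TF also called E2A. The segment from 56000001 to 57000000 on chromosome 17 followed, with a ZIC2 density of 8.22, a POU3F1 density of 0.264 and 42 genes, of which the histone demethylase gene Kdm4b had 47.6 kb of ZIC2 peaks.

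The largest excess of POU3F1 over ZIC2 density, as a difference, was found on chromosome 1 from 68000001 to 69000000. There were 201 POU3F1 peaks at a density of 7.06 and 4 ZIC2 peaks at 0.0712, at a GC content of 36.2%. No protein-coding gene starts there, and the segment lies in Erbb4, a neuregulin receptor gene of 1076 kb that was covered by 475 kb of POU3F1 peaks and 5.85 kb of ZIC2 peaks. On the X chromosome, the segment from 84000001 to 85000000 had 180 POU3F1 peaks at 6.21 and 1 ZIC2 peak at 0.0192, and lies in Il1rapl1, a synaptic receptor gene of 1375 kb. On chromosome 16, the segment from 74000001 to 75000000 had 185 POU3F1 peaks at 6.02 and 4 ZIC2 peaks at 0.0747, and 1 gene starts there, the Slit receptor gene Robo2. With activin, ZIC2 density in the ZIC2 segments above was 11.6, 11.4 and 7.94, and POU3F1 density in the POU3F1 segments was 7.30, 6.65 and 6.31.

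**Figure D1:**
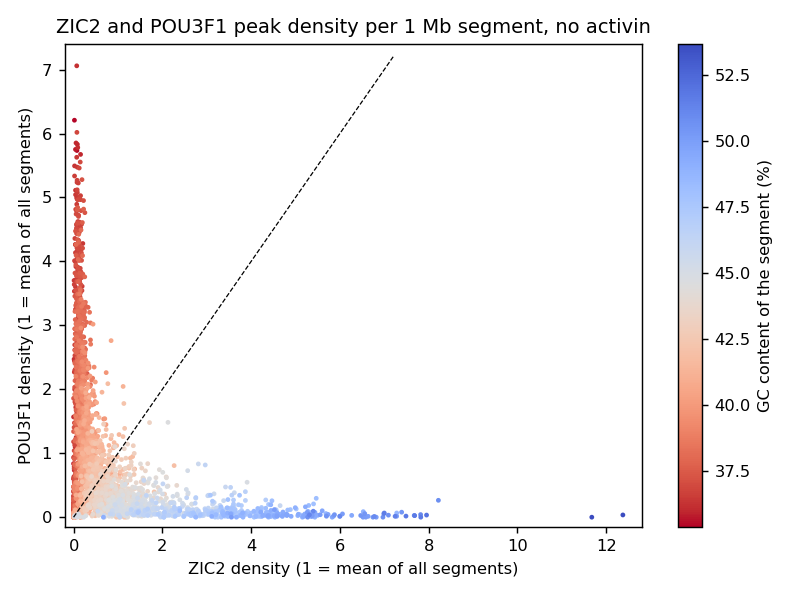
ZIC2 density (horizontal axis) and POU3F1 density (vertical axis) of the 1 Mb segments of the activin-free culture, both relative to a mean of 1. Each point is a segment, coloured by its GC content, and the dashed line marks equal density. Points lie along both axes, with GC-rich segments along the ZIC2 axis and AT-rich segments along the POU3F1 axis, and none exceeds 2 for both TFs.

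Segments rich in both TFs were rare. ZIC2 density was over 2 in 398 segments, in which the median POU3F1 density was 0.0602, and POU3F1 density was over 2 in 428 segments, in which the median ZIC2 density was 0.127. There were 0 segments with both densities over 2 and 10 with both over 1. One of these, on chromosome 4 from 44000001 to 45000000 with the B cell factor gene Pax5, had a ZIC2 density of 2.13 and a POU3F1 density of 1.48. Segments poor in both were also few, with 48 in which both densities were under 0.1.

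Segments of the same kind lay side by side. Of 2553 pairs of adjacent segments, 538 switched from one TF to the other (21.1%). There were 285 ZIC2 runs and 280 POU3F1 runs, both with a median length of 3 segments, and 71.8% of segments lay in runs of 5 or more. Of the ZIC2 runs, 84 had at least 5 segments, 27 at least 10 and 6 at least 20, and of the POU3F1 runs 102, 41 and 8. The number of segments in runs of 5 or more was 824 for ZIC2, 67.7% of the segments in which it was higher, and 1031 for POU3F1, which is 75.7%. With segments of 500 kb and runs of the same 5 Mb, the share of all segments in such runs was 50.7%.

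**Figure D2:**
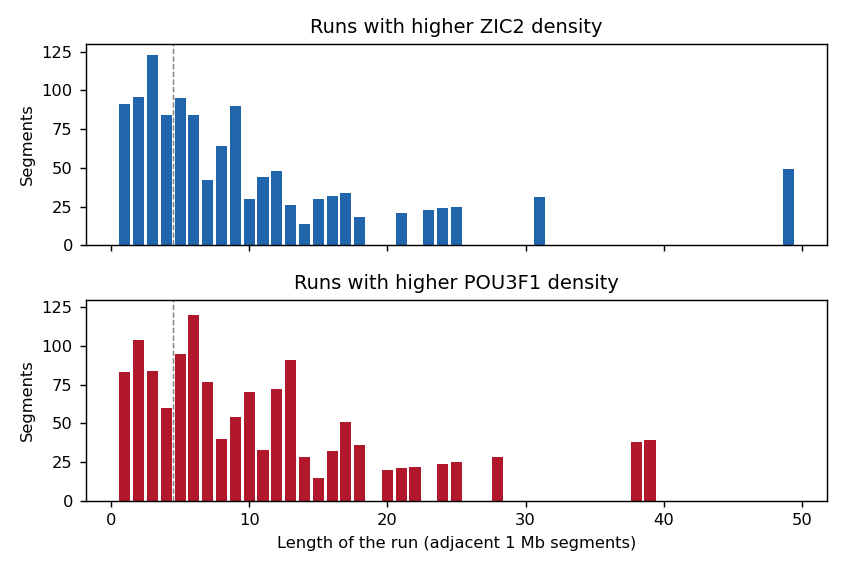
Number of 1 Mb segments (vertical axis) that lie in runs of a given length in segments (horizontal axis), for runs with higher ZIC2 density (top) and with higher POU3F1 density (bottom). The dashed line separates runs of 5 or more, and the longest runs hold 49 segments for ZIC2 and 39 for POU3F1.

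The longest run was the distal part of chromosome 5, where ZIC2 density was higher in all 49 segments from 104000001 to 152537259. Mean densities were 2.55 for ZIC2 and 0.135 for POU3F1, GC content was 46.4%, and there were 664 genes, or 13.7 per Mb. Genes with wide ZIC2 coverage included the mitotic checkpoint gene Mad1l1 with 83.3 kb in 77 peaks and Cux2, a homeobox gene of cortical neurons, with 64.3 kb in 60 peaks, both with 0 POU3F1 peaks. Long genes in this run also had POU3F1 peaks, with 32.1 kb against 61.1 kb of ZIC2 at Sdk1, a cell adhesion gene of 974 kb, and 22.4 kb against 43.1 kb at Auts2. The next longest ZIC2 runs were on chromosome 4 from 114000001 to 145000000, with 31 segments and 17.1 genes per Mb, and on chromosome 11 from 48000001 to 73000000, with 25 segments and 18.4 genes per Mb. These held Ephb2 (63.2 kb of ZIC2 peaks), a receptor of axon guidance, and Ntn1 (44.1 kb), a ligand of axon guidance.

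The longest POU3F1 run was on chromosome 16 from 45000001 to 84000000 with 39 segments. Mean densities were 2.07 for POU3F1 and 0.148 for ZIC2, GC content was 38.1%, and there were 133 genes, or 3.41 per Mb, with 12 segments in which no gene starts. Receptor and adhesion genes of neurons had the widest POU3F1 coverage, with 166 kb in 92 peaks at Robo2, 130 kb at Epha3 and 117 kb at Cadm2, against 1.85, 3.74 and 0.535 kb of ZIC2 peaks. The next were on chromosome 14 from 81000001 to 119000000, with 38 segments and 1.42 genes per Mb, and on the X chromosome from 103000001 to 131000000, with 28 segments and 3.07 genes per Mb. On chromosome 14 the glypican genes Gpc5 and Gpc6 had 304 and 137 kb of POU3F1 peaks, and on the X chromosome the formin gene Diap2 had 253 kb and Pcdh11x, a protocadherin gene, had 238 kb. Of these 6 runs, 5 had the same TF higher in every segment with activin, and the run on chromosome 14 did in 37 of 38.

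The runs of the TFs did not share a range of GC content. The 84 ZIC2 runs of 5 or more segments had a mean GC content between 42.4% and 49.2%, with a median of 45.0%, and the 102 POU3F1 runs between 36.8% and 41.4%, with a median of 38.8%. Gene number did overlap, with a median of 13.0 genes per Mb in ZIC2 runs (4.38 to 37.2) and 3.40 in POU3F1 runs (0.5 to 44.4). The POU3F1 run with the most genes, on chromosome 2 from 85000001 to 90000000, held 222 genes at a GC content of 37.1%, and its densities were 3.40 for POU3F1 and 0.132 for ZIC2. Each of its segments held 40 to 50 genes, of which 37 to 50 were olfactory receptor genes. The ZIC2 run with the fewest genes, on chromosome 12 from 16000001 to 32000000, held 4.38 per Mb at 44.2% GC, with densities of 0.776 and 0.144. The run with the highest mean POU3F1 density, 3.95, was also the one with the lowest GC content and the fewest genes per Mb, with 6 genes in the 12 segments of chromosome 15 from 13000001 to 25000000. Of these 6 genes, 5 are the cadherin genes Cdh6, Cdh9, Cdh10, Cdh12 and Cdh18.

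Over segments, GC content ran closely with the difference between the TFs. In the lowest of 10 GC classes of equal size, from 35.4% to 37.3%, mean density was 0.0698 for ZIC2 and 2.79 for POU3F1, and in the highest, from 46.7% to 53.7%, it was 4.32 and 0.0643. ZIC2 was higher in 0 of 259 segments of the lowest class and in 259 of 259 of the highest. Both were close in class 6, from 41.5% to 42.5%, with mean densities of 0.598 and 0.569, where ZIC2 was higher in 138 of 258 segments. Spearman's correlation of the log2 density ratio with GC content over 2584 segments was 0.948, and with gene number 0.712.

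Within a narrow range of GC content the TFs were no longer opposed. Spearman's correlation of ZIC2 with POU3F1 density was positive within 9 of the 10 GC classes, from 0.105 to 0.639, and -0.179 in the highest class. With GC content held constant over all segments it was 0.368. Gene number still differed at a like GC content. In class 6 there were 11.3 genes per Mb where ZIC2 was higher and 6.06 where POU3F1 was higher, in class 5 there were 13.6 and 6.10, and in class 7 there were 9.19 and 5.17. The correlation of the log2 ratio with gene number was 0.279 with GC content held constant, and that with GC content was 0.900 with gene number held constant.

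**Figure D3:**
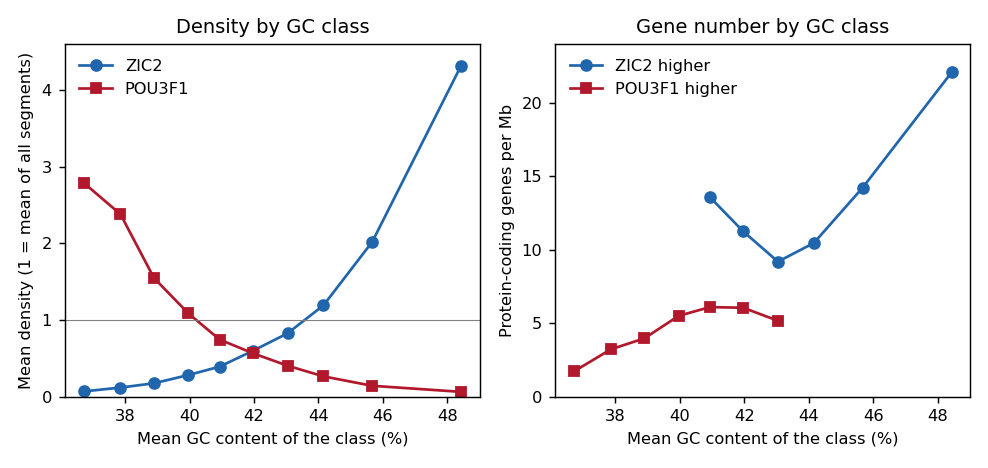
Mean density (left) and protein-coding genes per Mb (right) in 10 classes of segments with equal numbers, against the mean GC content of the class. Blue circles are ZIC2 or segments with ZIC2 higher, red squares are POU3F1 or segments with POU3F1 higher, and at right only classes with at least 20 such segments are drawn. Densities cross near 42% GC, and segments with ZIC2 higher held more genes in each class drawn for both.

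The densities exchanged within the segments beside a border. Which TF is higher on each side follows from how runs were defined, whereas GC content, gene number and the other lists were not used for it. Where a POU3F1 run and a ZIC2 run of at least 5 segments met, at 47 borders, mean ZIC2 density was 0.154 ± 0.124 (SD, n = 47 borders) in the second segment on the POU3F1 side, 0.300 ± 0.238 in the first, 1.20 ± 0.719 in the first on the ZIC2 side and 2.05 ± 1.46 in the second. Mean POU3F1 density went from 1.90 ± 1.37 and 1.30 ± 0.774 to 0.303 ± 0.222 and 0.202 ± 0.188 over the same segments. GC content went from 38.3% and 39.8% to 43.6% and 45.0%, and gene number from 4.36 and 5.83 to 11.8 and 15.7 per segment. Across the border, GC content was higher in the first ZIC2 segment at 46 of 47 borders and gene number at 37, with 9 in the opposite direction.

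The other TFs of the activin-free culture also differed across these borders. The borders were set by ZIC2 and POU3F1 density, so the size of the step cannot be compared between those 2 TFs and the others. OTX2 density was higher in the first ZIC2 segment at 36 of 47 borders, SOX2 density was higher in the first POU3F1 segment at 40, and POU5F1 density at 42. Mean density in the second segment of the POU3F1 side and of the ZIC2 side was 0.618 and 1.36 for OTX2, 1.34 and 0.696 for SOX2, and 1.37 and 0.554 for POU5F1. With activin, ZIC2 was higher on the ZIC2 side at 43 borders and POU3F1 on the POU3F1 side at 44.

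**Figure D4:**
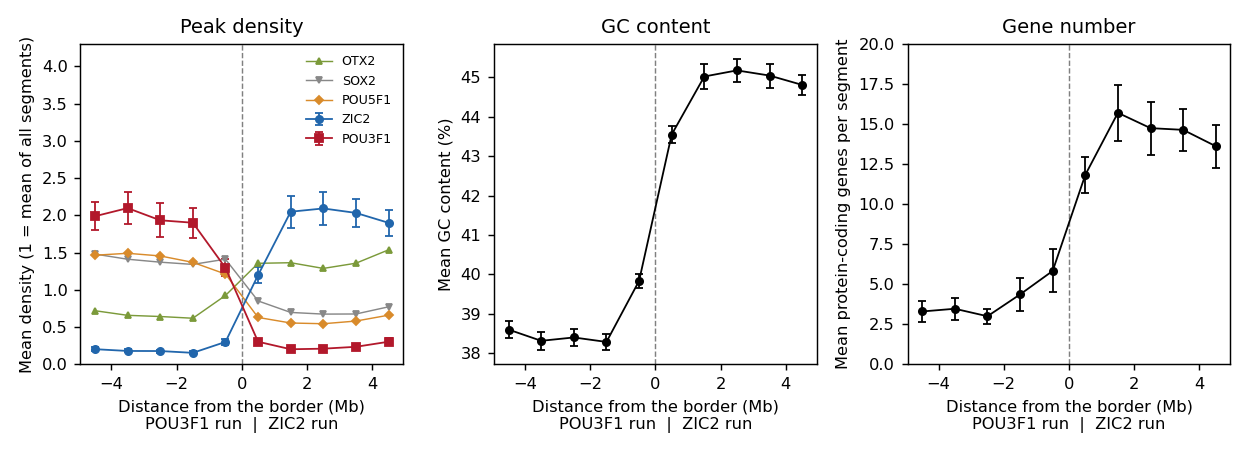
Mean peak density of the 5 TFs in the activin-free culture (left), mean GC content (middle) and mean number of protein-coding genes per segment (right) at increasing distance in Mb from 47 borders between runs of at least 5 segments, with POU3F1 runs at negative distances. Error bars are the SD divided by the root of the number of borders, and are drawn for ZIC2, POU3F1, GC content and gene number. ZIC2 and POU3F1 exchange places within the segments beside the border, together with a step in GC content.

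Peaks of each TF kept their base composition in the domains of the other. Within 100 bp of the midpoint, ZIC2 peaks had a mean GC content of 56.4% in ZIC2 runs and 56.1% in POU3F1 runs, whereas 1000 bp away it was 48.8% and 41.3%. POU3F1 peaks had 33.6% in ZIC2 runs and 31.6% in POU3F1 runs, against 41.3% and 37.5% beside them. CCTGCTG on either strand was found in 20.8% of ZIC2 peaks in ZIC2 runs (20.5 to 21.1%, 95% Wilson interval) and in 21.4% of those in POU3F1 runs (20.6 to 22.2%), which was 2.90 and 5.96 times the share 1000 bp away. In windows of this length tiled over the runs it was found in 5.72% and 2.76%.

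POU3F1 peaks in ZIC2 runs held the octamer more often. It was found in 13.1% of the 7982 POU3F1 peaks in ZIC2 runs (12.4 to 13.8%) and in 8.63% of the 72942 in POU3F1 runs (8.43 to 8.83%), against 2.17% and 3.67% of tiled windows. The intervals do not overlap, but they cover counting error only, and peaks of a library are not replicates. These peaks also differed in width and score, with medians of 998 bp and 142 in ZIC2 runs and 1299 bp and 237 in POU3F1 runs, whose part in the octamer share was not tested. The AT-rich sequence TAATTA, which homeodomains bind and which was chosen after counting short sequences in these peaks, was at 22.4% and 22.7%. In tiled windows it was at 4.95% and 8.99%. Its share in the peaks was 2.81 times that 1000 bp away in ZIC2 runs and 2.11 times in POU3F1 runs. TAATTA and the octamer can share end bases.

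Distance to TSSs (transcription start sites) differed between the domains for both TFs. The segments of ZIC2 runs held 14.9 protein-coding genes per Mb and those of POU3F1 runs 3.75. The part of gene number in this distance was not tested. Within 5 kb of a TSS lay 40.3% of ZIC2 peaks in ZIC2 runs (39.9 to 40.6%) and 28.5% of those in POU3F1 runs (27.7 to 29.3%). For POU3F1 peaks it was 20.8% in ZIC2 runs (19.9 to 21.7%) and 7.84% in POU3F1 runs (7.65 to 8.04%). The median distance of a POU3F1 peak to a TSS was 19.7 kb in ZIC2 runs and 68.2 kb in POU3F1 runs.

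Few peaks of the TFs coincided. Of 109064 ZIC2 peaks on the chromosomes compared, 2065 overlapped a POU3F1 peak by at least 1 bp, which is 1.89% (1.81 to 1.98%), and conversely 2.02% of POU3F1 peaks overlapped a ZIC2 peak. The share was 1.00% of ZIC2 peaks where ZIC2 density was higher and 7.04% where POU3F1 density was higher. Among POU3F1 peaks it was 6.65% where ZIC2 density was higher and 1.30% where POU3F1 density was higher. Segments were classed by the densities, so the other list covers more of the segments with the larger share. The part of this coverage was not tested. The share of ZIC2 peaks depended on the peaks counted. It was 0.841% with peaks narrower than 1000 bp and 0.772% when each list was reduced to its 50000 peaks of highest score. It was 0.389% when 50% of both peaks had to overlap.

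Chromosomes differed in their share of ZIC2 segments. Apart from the Y chromosome it was highest on chromosome 11, with 85 of 119 segments (71.4%), and on chromosome 7, with 64.6%, and lowest on the X chromosome, with 35 of 164 (21.3%), and on chromosome 3, with 27.4%. Mean ZIC2 and POU3F1 densities were 1.88 and 0.675 on chromosome 11 and 0.245 and 1.06 on the X chromosome. Within chromosomes, Spearman's correlation of the densities was negative on each of the 19 autosomes and the X chromosome, from -0.870 on chromosome 2 to -0.291 on chromosome 14. The Y chromosome has 3 segments and was given no value.

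Most genes start in ZIC2 segments. Of 22367 protein-coding genes, 74.3% start where ZIC2 density was higher and 61.3% where it was at least 2-fold higher, compared with 16.2% where POU3F1 density was at least 2-fold higher. There were 13.7 genes per Mb in ZIC2 segments and 4.21 in POU3F1 segments. Of 278 segments in which no gene starts, POU3F1 was higher in 268 and ZIC2 in 9. Of the 200 genes longer than 500 kb, 134 (67.0%) start where POU3F1 was higher, compared with 25.5% of all genes.

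Gene-rich segments with more POU3F1 than ZIC2 held gene clusters. Of 298 segments with at least 20 genes, ZIC2 was higher in 265 and POU3F1 in 33. The latter hold 1096 genes, of which 668 are olfactory and 50 are vomeronasal receptor genes, together 65.5%. Of the 33 segments, 24 have at least 5 such genes. Among all 22367 genes, 1087 are olfactory and 319 are vomeronasal receptor genes. Of the olfactory genes 760 (69.9%) start in POU3F1 segments and 327 in ZIC2 segments, and of the vomeronasal genes 156 (48.9%) and 162. Of all genes, 25.5% start in POU3F1 segments. The others include the clusters of Prl genes of the prolactin family on chromosome 13 (21 of 21 genes of the segment), Lce genes of the cornified envelope on chromosome 3 (18 of 44), bitter taste receptor genes on chromosome 6 (17 of 24), Taar genes on chromosome 10 (15 of 22) and Krtap genes of hair keratin-associated proteins on chromosome 16 (11 of 20). The densities in the Prl segment were 1.94 for POU3F1 and 0.0613 for ZIC2. Members of a cluster share a segment, so their values are not independent, and peaks at near-identical copies are uncertain.

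The genes with the widest coverage were long. For POU3F1 they included Lrp1b (632 kb of POU3F1 peaks, 9.42 kb of ZIC2 peaks), a giant lipoprotein receptor gene, Dmd (587 and 5.28 kb), the dystrophin gene, Il1rapl1 (496 and 2.51 kb), Csmd3 (485 and 4.86 kb), Erbb4 (475 and 5.85 kb), Sgcz (426 and 3.77 kb), Ptprd (394 and 8.55 kb), Fam190a (392 and 4.63 kb) and Lingo2 (343 and 7.86 kb). For ZIC2 they included Gm20388 (1231 kb of ZIC2 peaks, 8.27 kb of POU3F1 peaks) and Fgfr2 (229 and 39.3 kb), whose models of 4435 and 3009 kb in this annotation span other genes, followed by Rbfox3 (142 and 1.39 kb), a splicing factor of neurons, Camta1 (119 and 0.619 kb), Sorcs2 (101.4 and 1.26 kb), Cdh23 (92.0 and 0 kb), Macrod1 (84.1 and 1.49 kb), Mad1l1 (83.3 and 0 kb) and Sept9 (80.1 and 0 kb). These genes were picked by their coverage, which therefore is a description.

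Genes of basic cell functions were mostly in ZIC2 segments. Relative to the 74.3% of all genes, this held for 77 of 83 genes of ribosomal proteins (92.8%), 31 of 36 of NADH dehydrogenase (86.1%) and 32 of 39 of the proteasome (82.1%). The median log2 ratio of ZIC2 to POU3F1 density in the segment of the gene start was 3.48, 2.88 and 2.89, compared with 1.99 over all protein-coding genes. The extremes among ribosomal protein genes were Rps15, in the segment with a log2 ratio of 6.88, and Rpl10l, with -4.94. All 50 keratin genes were in ZIC2 segments, but they lie in 3 segments only.

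Lists of signalling genes of the early embryo were in ZIC2 segments at shares near that of all genes, 74.3%, except for the WNT ligands. ZIC2 segments held 15 of 20 genes of the nodal and activin pathway, 9 of 12 WNT receptor genes and 16 of 22 FGF ligand genes (72.7%). Of 19 WNT ligand genes 17 were there (89.5%), with Wnt3 (log2 ratio 4.69) and Wnt3a (5.38) of the primitive streak among them, and the exceptions were Wnt2 (-0.72) and Wnt16 (-2.35). Among the 15 nodal and activin genes there, the signal Nodal had densities of 5.44 and 0.0746, its TF Foxh1 5.36 and 0.00900, and its antagonist Lefty1 3.56 and 0.345. POU3F1 density was higher in the segments of Acvr2a, an activin receptor (0.130 and 2.52), and Inhba, which encodes an activin subunit (0.229 and 0.989). It was also higher at Fst, an activin antagonist (0.291 and 0.941), Acvr1c (0.451 and 0.726) and Cer1 (0.527 and 0.784). Inhbb, which encodes another activin subunit (1.71 and 0.601), was in a ZIC2 segment. So were the receptor genes Acvr1b (4.55 and 0.0250) and Acvr2b (4.11 and 0.0140).

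Of 22 pluripotency genes, 18 were in ZIC2 segments (81.8%, compared with 74.3% of all genes), as were 16 of 22 epiblast and EpiSC genes (72.7%). The 4 pluripotency genes in POU3F1 segments were Klf5 (log2 ratio -2.22), Dppa2 and Dppa4 (both -1.86, in 1 segment) and Zfp42 (-1.84). Pou5f1 had the highest log2 ratio, 5.79, in a segment with a ZIC2 density of 5.44 and a POU3F1 density of 0. Nanog, Gdf3 and Dppa3 share a segment with 0.756 and 0.0723. Of 21 genes of the primitive streak and endoderm, 18 were in ZIC2 segments (85.7%), led by Snai1 (5.94), and those in POU3F1 segments were Sox17 (-0.28), Cer1 (-0.50) and Msgn1 (-1.14). Among the genes of the 5 TFs, Otx2 was in a POU3F1 segment (0.530 and 1.16), and the others were in ZIC2 segments.

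Giant genes of neuronal adhesion and synapses were in POU3F1 segments in 31 of 34 cases, each at least 2-fold. Of all genes, 25.5% start in POU3F1 segments and 16.2% where the difference was at least 2-fold. Of genes longer than 500 kb it was 67.0% and 58.5%. The median length in the list was 1135 kb, with 191 kb at Nrg1, and the part of length was not tested. The median log2 ratio was -3.61, compared with 1.99 over all protein-coding genes. The lowest was Csmd3 with -5.26, followed by Robo2 with -5.13 and Dmd with -5.10. The exceptions were Ctnna3 (1.90), Nrxn3 (1.09) and Opcml (0.99), whose starts lie in ZIC2 segments. Over the whole of these genes with 10 kb on each side, POU3F1 peaks covered 84.4 kb of Ctnna3, 163 kb of Nrxn3 and 51.1 kb of Opcml, and ZIC2 peaks 5.89, 13.1 and 15.3 kb.

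Cadherin and protocadherin genes were mostly in POU3F1 segments, where 25.5% of all genes start. Of 12 genes of type II cadherins, which mediate adhesion between neurons, 10 were in POU3F1 segments, with Cdh9 (log2 ratio -4.92), Cdh12 (-4.91) and Cdh18 (-4.90) lowest, and Cdh22 (5.09) and Cdh24 (4.59) were in ZIC2 segments. Of 9 delta protocadherin genes 7 were in POU3F1 segments, Pcdh11x (-4.51) and Pcdh9 (-4.41) among them, and Pcdh1 (4.22) and Pcdh8 (0.25) were in ZIC2 segments. The 24 clustered protocadherin genes listed from this annotation start in 1 segment, where 21 of 29 genes are Pcdhb genes. ZIC2 density there was 0.491 and POU3F1 density 1.03. The count of 24 is that of the gene models and may not be the whole family.

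The listed genes of axon guidance were split between the domains. The list does not hold every member of their families, so its counts and shares hold for the listed genes only. Of 38 genes, 20 were in ZIC2 segments (52.6%, compared with 74.3% of all genes). POU3F1 density was at least 2-fold higher for 16 of them (42.1%, compared with 16.2% of all genes). The median log2 ratio of the 38 was 0.18, compared with 1.99 over all protein-coding genes. Of listed Eph receptors, Epha3, Epha4, Epha5, Epha6 and Epha7 were in POU3F1 segments, with log2 ratios between -5.00 at Epha5 and -1.79 at Epha4. Epha8, Ephb1, Ephb2 and Ephb3 were in ZIC2 segments, with ratios between 3.72 at Ephb3 and 4.80 at Epha8 and Ephb2. Of the ephrin ligands listed, Efna1, Efna2, Efnb1, Efnb2 and Efnb3 were in ZIC2 segments and Efna5 (-0.77) was not. Among Slit proteins and their Robo receptors, Slit1 (3.44), Slit3 (2.23) and Robo3 (0.55) were in ZIC2 segments, and Slit2 (-3.43), Robo1 (-4.80) and Robo2 were in POU3F1 segments. Of listed class 3 semaphorins, Sema3a (-4.19), Sema3c (-2.84), Sema3d (-3.91) and Sema3e (-4.10) were in POU3F1 segments of chromosome 5. Sema3f (3.82), on chromosome 9, was in a ZIC2 segment.

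Glutamate and GABA receptor subunits, of which 20 of 33 were in POU3F1 segments (60.6%, compared with 25.5% of all genes), were also split by subunit. The NMDA receptor genes Grin1 (5.69), Grin2c (5.39), Grin2d (5.36), Grin3b (6.88), Grin2b (1.24) and Grin2a (0.88) were in ZIC2 segments and Grin3a (-0.65) was not. Of the AMPA receptor genes, Gria2 (-3.23), Gria3 (-3.42) and Gria4 (-2.17) were in POU3F1 segments, and at Gria1 the densities were 0.280 and 0.278. GABA receptor genes that share a segment share its value, as Gabra6 and Gabrb2 (both -4.18) on chromosome 11.

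**Figure D5:**
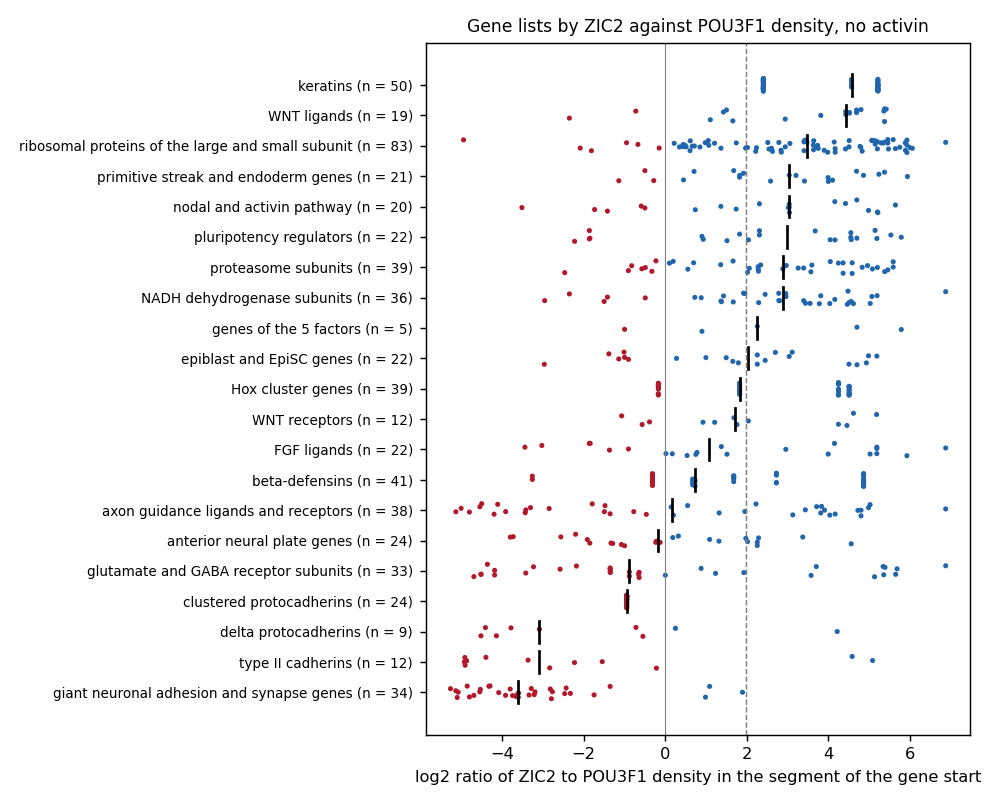
Log2 ratio of ZIC2 to POU3F1 density (horizontal axis, 0.1 added to both) in the 1 Mb segment of the gene start, for the members of 21 gene lists. Each point is a gene, blue where ZIC2 was higher and red where POU3F1 was higher, with vertical jitter, the black bar is the median of the list, and the dashed line is the median of all protein-coding genes at 1.99. WNT ligands and keratins lie at the right and giant neuronal genes at the left, and genes in 1 segment share a value.

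Genes of the anterior neural plate, toward which cells develop without activin, were divided between the domains. Of 24 genes, 11 were in ZIC2 segments (45.8%, compared with 74.3% of all genes) and 13 in POU3F1 segments. The median log2 ratio was -0.17, compared with 1.99 over all protein-coding genes. Those in ZIC2 segments were led by Lhx5 (4.56), Dmbx1 (3.38) and Six3 (2.29), and those in POU3F1 segments by Zic1 (-3.79) and Pou3f4 (-3.72). In 10 of these 13, however, ZIC2 peaks covered more than POU3F1 peaks within 10 kb of the gene start. Over all 5712 genes in POU3F1 segments this was the case for 37.1%. Here and below, widths around gene starts and over genes were compared in bp. Unlike the densities of segments, they were not divided by the mean of the list.

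Pax6, the eye and forebrain homeobox gene, lies in a segment with densities of 0.772 for ZIC2 and 2.09 for POU3F1, but within 10 kb of its start there were 6.77 kb of ZIC2 peaks and 0 kb of POU3F1 peaks. Within that distance there were 9.92 kb of ZIC2 peaks and 3.61 kb of POU3F1 peaks at Otx1, 7.76 and 2.13 kb at Pou3f2, 5.93 and 1.22 kb at Nr2f1, and 5.27 and 0.961 kb at Fezf1. POU3F1 covered more at Zic1 (0.891 kb of ZIC2 and 2.36 kb of POU3F1 peaks), Pou3f4 (1.66 and 3.68 kb) and Otx2 (0.521 and 1.60 kb), where 740 of 753 bp of a POU3F1 peak lie over exons of Otx2. In the culture with activin, ZIC2 covered more at 11 of the 13, and 39.4% of all such genes did.

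Hoxd genes were a further case. Of 39 Hox genes, which lie in 4 segments, 30 were in ZIC2 segments (76.9%, near the 74.3% of all genes), and the 9 Hoxd genes were in a segment of chromosome 2 with a ZIC2 density of 1.11 and a POU3F1 density of 1.26, one of the few with both over 1. All 9 had ZIC2 peaks within 10 kb of the start, from 3.15 kb at Hoxd1 to 7.90 kb at Hoxd10, and 0 kb of POU3F1 peaks. The windows of neighbouring Hoxd genes overlap, so these are not 9 separate observations.

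For the giant neuronal genes, starts and whole genes gave different counts. Within 10 kb of the start, ZIC2 covered more in 10 of the 31 in POU3F1 segments (32.3%), near the 37.1% of all genes there, and with peaks narrower than 1000 bp in 12.9%, compared with 26.6% of all. Over the gene body with 10 kb on each side it did in 0 of 31, compared with 25.7% of all. At Sema3a, a guidance ligand, POU3F1 peaks covered 7.15 kb and ZIC2 peaks 0 kb around the start, whereas at Slit2 they covered 1.27 and 3.81 kb, and over the gene 95.4 and 3.81 kb. Of the 760 olfactory receptor genes in POU3F1 segments, 16 (2.11%) had more ZIC2 than POU3F1 peak width around the start, and without olfactory and vomeronasal receptor genes the share over all genes was 43.8%. In ZIC2 segments, POU3F1 covered more around the start in 903 of 16629 genes (5.43%). This comparison of starts was added after the data were examined.

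The domains were nearly the same in the culture with activin. The same TF was higher in 2525 segments (97.7%), and the log2 density ratios of the cultures had a Spearman correlation of 0.996 over the 2585 segments, which share the genome sequence and the tagged TFs. The 51 segments in which the higher TF differed were near balance, since in 50 of them the densities differed by less than 2-fold in both cultures, and 0 had a 2-fold difference in both. Their mean GC content was 41.7%. Of the 538 switches without activin, 482 (89.6%) lay at the same border with activin, which is 91.8% of the 525 found there.

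In 2 segments the ratio differed more than 2-fold between the cultures, both with relatively more POU3F1 without activin. On chromosome 16 from 67000001 to 68000000, which Cadm2 overlaps, there were 45 POU3F1 peaks without and 25 with activin, at densities of 0.838 and 0.347, and 0 ZIC2 peaks in either. On chromosome 8 from 20000001 to 21000000 there were 3 and 0 POU3F1 peaks and 1 ZIC2 peak in both. With 1 library per culture, a change with activin and a difference between libraries cannot be told apart.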

How the data were processed

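ChIP-seq peak lists of biotin-tagged TFs in mouse EpiSCs were used. The authors used Bowtie2 for alignment to mm9 and MACS for peak calling with input DNA as reference, and deposited each library as a list of peak positions with a score, which is the negative log10 of the peak's p-value times 10 and is at least 50 here. Replicates were not pooled, since each TF and culture has 1 library. Which input served as reference for the activin-free lists is not given in the sources used here, and the input library was not analysed here. Read counts are not part of the lists, so depth is unknown.

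Peaks on chromosomes 1 to 19, X and Y were summed per 1 Mb segment and divided by the mean over segments with a peak of any of 5 TFs. Log2 ratios had 0.1 added to both densities. Runs of at least 5 segments were compared for GC content and 22367 protein-coding genes of GENCODE on the mm9 sequence. Motifs were counted on both strands within 100 bp of peak midpoints, 1000 bp away, and in windows every 20 kb. Spearman correlations are over segments and carry no p-value, and no test between TFs was possible with 1 library each. Wilson intervals of 95% cover counting error only. The named segments were the 3 with the largest and 3 with the smallest difference in density, the named runs the 3 longest of each TF, and the named genes the 10 with the widest peaks of each TF and members of 23 gene lists, of which some are not reported here. The libraries and gene lists were chosen with earlier results of these data known. Alternatives concerned peak lists, segment size, the added density, overlap and annotation. Scripts were tested on simulated data and used Python 3.11.15, numpy 2.4.6, scipy 1.17.1, pandas 2.3.3 and matplotlib 3.10.9.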

Additional observations from a re-analysis of the deposited data

Results flagged for a closer look

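Outside chromosomes 1 to 19, X and Y, the activin-free ZIC2 list held 241 peaks and the POU3F1 list 69, which no comparison used.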

How the results depend on the processing

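None of 134 recalculations under other settings reversed a value, and 102 stayed within the interval of the value or within 1.5 times of it. Of the other 32, those by peak list were as follows. With peaks narrower than 1000 bp, ZIC2 was higher in 43.3% of segments, at least 2-fold in 30.2%, and POU3F1 at least 2-fold in 42.6%. Then 69.2% of segments lay in long runs, 70.0% of genes started in ZIC2 segments, overlap was 0.841% and 93.7% of segments had the same TF higher in both cultures. With the 50000 highest-scoring peaks, ZIC2 was at least 2-fold higher in 37.4%, 67.0% lay in long runs, overlap was 0.772% and 95.6% were the same in both cultures. With scores of at least 100, overlap was 1.23% and 97.0% were the same. An overlap of 50% of both peaks left 0.389%.

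With 0.02 added to densities, ZIC2 was at least 2-fold higher in 37.1% and POU3F1 in 42.9% of segments, and with 0.5 in 27.5% and 31.0%. In segments of 500 kb, 19.4% of pairs switched, 50.7% of segments lay in long runs, 75.04% of genes started in ZIC2 segments and 96.6% of segments were the same in both cultures, and in segments of 2 Mb these were 26.2%, 79.8%, 71.6% and 98.5%. With all segments kept, 69.6% lay in long runs and 94.7% were the same. By peak number, 73.3% of genes started in ZIC2 segments and 96.9% of segments were the same. The gene share was 75.1% on autosomes and 75.8% with all transcripts. The share of gene starts in POU3F1 segments with more ZIC2 than POU3F1, added after seeing the data, was 35.2% with scores of at least 100, 32.0% with the 50000 highest-scoring peaks, 26.6% with narrow peaks and 25.7% over gene bodies. The cause of these shifts was not tested. No paired analysis was possible because each TF and culture has 1 library, and none could be left out. Unknown read depth limits every comparison of the lists.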
